A study of Mus musculus with 12 samples.

Results

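Glycolytic enzymes were followed through the loss of Ronin in mouse embryonic stem (ES) cells, as the 10 genes Hk2, Pfkl, Pfkp, Aldoa, Tpi1, Gapdh, Pgk1, Eno1, Pkm and Ldha. A probe set was taken for a gene when the platform annotation named that gene alone. This gave 23 probe sets for 9 of the 10 genes, among 45101 probe sets and 18194 genes on the array, and Eno1 had none and was not analysed here. Each gene is represented by its brightest probe set over the 12 arrays. Ronin is the zinc finger protein encoded by Thap11, known for its part in ES cell growth and self-renewal.

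The control cells were Roninflox/flox mouse ES cells, in which the Ronin gene is flanked by recombination sites. The knockout cells were CreERT2; Roninflox/flox ES cells, which also carry a Cre recombinase that tamoxifen activates. Tamoxifen was given to both at 0.25 µM, and RNA was taken on day 1.5, on day 3 and, after replating on day 4, on day 6. Every combination of genotype and day was hybridised on 2 arrays, and the labels do not state whether the 2 arrays hold RNA of different cultures. The p-values therefore cover the spread between 2 arrays, which may be technical. All knockout arrays and no control array carry CreERT2, so effects of the Cre line and of Ronin loss cannot be told apart. Thap11 read from 1181 to 1382 over the 6 control arrays, and fell in the knockout by 1.84 on the log2 scale on day 1.5, fell by 3.67 on day 3 and dropped by 4.72 on day 6 (limma, largest adjusted p = 1.2e-05). Whether its probe set lies in the deleted stretch is not given in the sources used here.

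Glycolysis converts glucose to pyruvate in the cytosol and yields ATP and NADH. Hexokinase traps glucose in the cell, phosphofructokinase commits the sugar phosphate to breakdown, aldolase and triose phosphate isomerase make and interconvert the triose phosphates, and the lower enzymes harvest energy as these become pyruvate. Lactate dehydrogenase regenerates the NAD that the pathway needs by reducing pyruvate to lactate. Mouse ES cells are known for a high rate of glycolysis, and hypoxia-inducible factor and Myc are known activators of many of its genes.

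Promoter sequences of 3 enzymes are shown because these genes stand for 3 of the patterns found on the arrays. In the main fit Hk2 passed no same-day test, and Pgk1 was lower in the knockout on every day. Tpi1 was not called on day 1.5 and was lower on days 3 and 6. A further pattern, called lower on day 6 alone, was that of Pfkl, Pkm and Ldha, for which no sequence is shown. These patterns are of calls. The difference between knockout and control changed from day 3 to day 6 for Ldha (adjusted p = 0.00076 in limma). For Pfkl and Pkm that change did not pass (adjusted p = 0.46 and 0.24 in limma). All 9 genes matched the RefSeq promoter table (assembly GRCm38.p6). Each stretch holds the 250 bases before the annotated transcription start, written 5′ to 3′ on the gene's strand, with capitals for the core of the hypoxia response element, ACGTG or GCGTG on either strand.
Hk2, chr6:82774455-82774704, minus strand: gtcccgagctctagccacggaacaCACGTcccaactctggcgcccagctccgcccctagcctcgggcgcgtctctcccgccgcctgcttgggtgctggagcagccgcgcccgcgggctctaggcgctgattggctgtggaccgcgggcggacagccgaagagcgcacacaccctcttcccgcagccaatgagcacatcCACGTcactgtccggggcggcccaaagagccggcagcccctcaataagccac
Pgk1, chrX:106186850-106187099, plus strand: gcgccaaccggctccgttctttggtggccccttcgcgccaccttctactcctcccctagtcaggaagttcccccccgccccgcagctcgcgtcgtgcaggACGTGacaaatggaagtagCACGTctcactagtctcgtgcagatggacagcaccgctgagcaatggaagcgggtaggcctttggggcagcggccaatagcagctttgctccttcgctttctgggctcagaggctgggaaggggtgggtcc
Tpi1, chr6:124814159-124814408, minus strand: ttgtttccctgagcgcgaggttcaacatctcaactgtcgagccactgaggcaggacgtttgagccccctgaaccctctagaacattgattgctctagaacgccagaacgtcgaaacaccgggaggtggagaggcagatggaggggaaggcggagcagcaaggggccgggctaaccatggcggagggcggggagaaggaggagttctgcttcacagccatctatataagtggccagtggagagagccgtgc
The Hk2 and the Pgk1 stretch each held 2 cores, and the Tpi1 stretch held none.

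Over all annotated starts of the 9 genes, in windows that run from 250 bases before to 50 bases after each start, 10 of 13 windows and 8 of 9 genes held a hypoxia core, and Tpi1 was the gene without one. The core is short, and 43.8% of all 32851 windows in the table held it. The E-box CACGTG, which Myc can bind and which overlaps the hypoxia core on both strands, was in 1 of the 13 windows, that of Ldha, against 7.15% of all windows. The element linked to Ronin, searched on both strands as ACTACA, 2 further bases and TCCC, was in none of the 13 windows and in 1.81% of all windows. No match says only that these letters are not in these windows.

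All values below are array intensities after robust multi-array averaging (RMA), on a linear scale, and differences are on the log2 scale with their standard error (SE). A gene is said to rise or fall where its adjusted p in limma, with Benjamini-Hochberg adjustment over all 18194 genes, was under 0.05. Probe sets differ in how brightly they respond, so levels were compared within a gene and not between genes. The main probe sets lay between the 94.0th and the 99.9th percentile of brightness on the array.

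The first committed steps gave 2 different pictures, with the phosphofructokinase genes lower in the knockout on day 6 and the hexokinase gene not. Hk2, which encodes a hexokinase, read 4742 and 4618 on the control arrays of day 1.5, 4178 and 4205 on day 3, and 4669.5 and 4585 on day 6. The knockout arrays read 4239 and 4327 on day 1.5, 4098 and 4347 on day 3, and 4780.2 and 4806 on day 6. The knockout arrays lay below the control arrays on day 1.5, overlapped them on day 3 and lay just above them on day 6. None of the 3 differences passed the test, with -0.13 ± 0.050 on day 1.5 (adjusted p = 0.16), 0.01 ± 0.050 on day 3 (adjusted p = 0.92) and 0.05 ± 0.050 on day 6 (adjusted p = 0.51; limma). The 95% interval of the day 6 difference ran from -0.06 to 0.16. In 1 of 19 alternative settings of the fit, Hk2 was called lower on day 1.5.

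Phosphofructokinase is the main control point of the pathway, and Pfkl and Pfkp encode its liver-type and platelet-type subunits. Pfkp read 2357 and 2259 on the control arrays of day 1.5, 2599 and 2592 on day 3, and 2408 and 2393 on day 6. The knockout arrays gave 2463 and 2400.1 on day 1.5, 1838 and 1954 on day 3, and 1641 and 1570.4 on day 6. The knockout arrays of days 3 and 6 were below every control array of any day, whereas those of day 1.5 were not. Pfkp fell by 0.45 ± 0.053 on day 3 (adjusted p = 0.00035) and by 0.58 ± 0.053 on day 6 (adjusted p = 4.6e-05; limma), to 73.0% and 66.9% of the control of the same day. With the 3 Pfkp probe sets averaged, the day 6 difference was smaller, at -0.34 (adjusted p = 0.015 in limma). The probe sets other than the main one were dim, with group means between 33.0 and 115. On day 1.5 the difference of the main probe set was 0.08 ± 0.053 (adjusted p = 0.46 in limma).

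Pfkl passed the test on day 6 and not before, although 1 of 19 alternative settings of the fit also called it lower on day 3. On the control arrays it read 1809 and 1748 on day 1.5, 2118 and 1992 on day 3, and 1721 and 1811 on day 6. On the knockout arrays it read 1727 and 1817 on day 1.5, 1890.3 and 1875 on day 3, and 1462 and 1550.4 on day 6. The 2 knockout arrays of day 6 were the lowest of all 12. The difference was -0.01 ± 0.059 on day 1.5 (adjusted p = 0.97) and -0.13 ± 0.059 on day 3 (adjusted p = 0.17), and Pfkl fell by 0.23 ± 0.059 on day 6 (adjusted p = 0.015; limma). That call was lost without replicate 2 of the control of day 6 (adjusted p = 0.098), without replicate 1 of the knockout of day 6 (adjusted p = 0.11) and in a fit to the day 6 arrays alone (adjusted p = 0.055; limma).

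Aldoa and Tpi1, which encode the enzymes that produce and interconvert the triose phosphates, both fell on days 3 and 6. Aldoa, the aldolase gene, read 12463 and 12304 on the control arrays of day 1.5, 13262 and 13232 on day 3, and 12741 and 12439 on day 6. The corresponding knockout arrays read 12141 and 12541, then 10986 and 11609.7, then 9282 and 9094. Knockout and control arrays overlapped on day 1.5 and were apart on days 3 and 6. Aldoa fell by 0.23 ± 0.050 on day 3 (adjusted p = 0.0097) and by 0.45 ± 0.050 on day 6, to 73.0% of the control (adjusted p = 0.00014; limma). The day 3 call was lost without replicate 1 of the knockout of day 3, where the difference was -0.19 (adjusted p = 0.070 in limma).

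The control arrays of Tpi1, the gene of triose phosphate isomerase, read 5933 and 5583 on day 1.5, 6251 and 6408 on day 3, and 5401 and 5681 on day 6. Its knockout arrays read 5907 and 6004 on day 1.5, 5407 and 5327 on day 3, and 3668 and 3717 on day 6. The knockout values of day 3 were below the control values of the same day and of day 1.5 but overlapped those of day 6, and the knockout values of day 6 were far below every other array. Tpi1 fell by 0.24 ± 0.053 on day 3 (adjusted p = 0.010) and by 0.59 ± 0.053 on day 6, to 66.7% of the control (adjusted p = 4e-05; limma). Without replicate 2 of the knockout of day 3, the day 3 difference was -0.23 (adjusted p = 0.054 in limma).

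**Figure D1:**
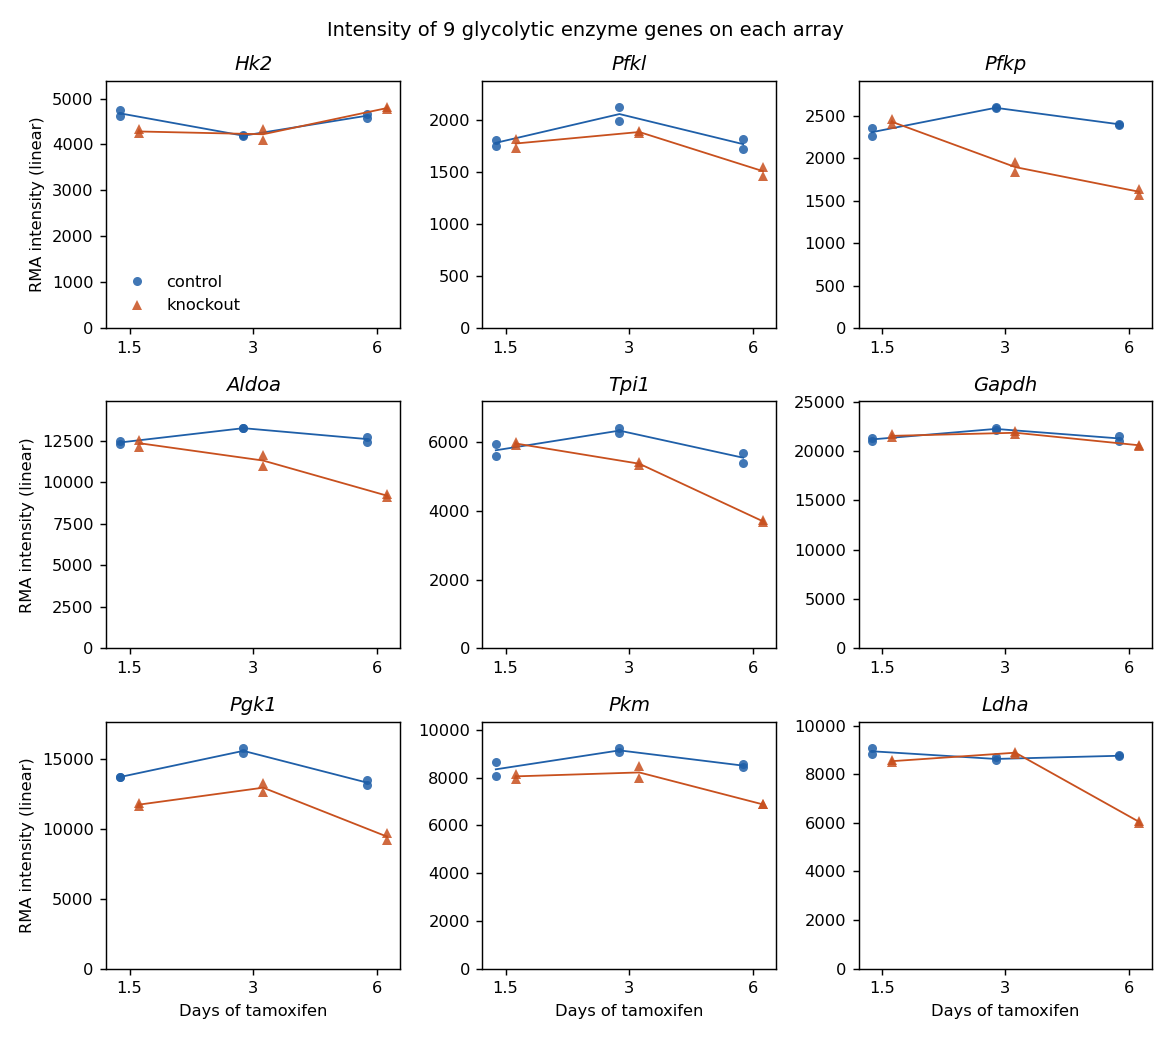
RMA intensity (linear, vertical axis from 0) against days of tamoxifen (evenly spaced categories) for the 9 genes; circles are single control arrays, triangles single knockout arrays, and lines join the means of the 2 arrays. On day 6 the knockout arrays lie below the control arrays for 8 of the 9 genes and above them for Hk2; of all 18194 genes, 32.4% had both knockout arrays below both control arrays and 32.7% had both above, so the lack of overlap alone is common.

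Gapdh, whose enzyme oxidises glyceraldehyde phosphate and makes NADH, passed no same-day test. Its main probe set is the 3′ control probe set of the array, which read 21350.1 and 20995 on the control arrays of day 1.5, 22339 and 22138 on day 3, and 20978 and 21565 on day 6. In the knockout it read 21388 and 21679 on day 1.5, 21709.8 and 21987 on day 3, and 20650.5 and 20509 on day 6. The group means of Gapdh spanned only 1.08-fold, against 1.71-fold for Tpi1, and the day 6 knockout arrays were the lowest. Its differences were 0.02 ± 0.046 on day 1.5, -0.03 ± 0.046 on day 3 and -0.05 ± 0.046 on day 6 (adjusted p = 0.81, 0.76 and 0.50; limma). The 95% interval of the day 6 difference ran from -0.15 to 0.06. This probe set lies at the 99.9th percentile of brightness, and the part of signal saturation in its small span was not tested.

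Pgk1, which encodes phosphoglycerate kinase, the first enzyme of the pathway to make ATP, was the gene that was lower from day 1.5 on. Control arrays read 13697 and 13653 on day 1.5, 15725 and 15367 on day 3, and 13104 and 13456 on day 6. Knockout arrays read 11603 and 11827 on day 1.5, 13262 and 12577 on day 3, and 9684 and 9183 on day 6. The knockout arrays lay below those of the control of the same day at each time, and those of day 3 overlapped the controls of day 6 but lay below those of day 1.5. Pgk1 fell by 0.22 ± 0.052 on day 1.5 (adjusted p = 0.029), by 0.27 ± 0.052 on day 3 (adjusted p = 0.0057) and by 0.49 ± 0.052 on day 6, to 71.0% of the control (adjusted p = 0.00011; limma). The day 1.5 call was lost without any 1 of the 4 arrays of that day (adjusted p from 0.10 to 0.14), in a fit to those arrays alone (adjusted p = 0.11) and with the mean of the 3 Pgk1 probe sets (adjusted p = 0.054; limma).

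Pkm and Ldha close the pathway, by making pyruvate and by turning pyruvate into lactate, and both fell on day 6. Pkm, the pyruvate kinase gene, read 8643 and 8052 on the control arrays of day 1.5, 9226 and 9055 on day 3, and 8439 and 8565 on day 6. It read 7944 and 8161 on the knockout arrays of day 1.5, 7968 and 8467 on day 3, and 6876 and 6882 on day 6. The arrays of the 2 genotypes overlapped on day 1.5 and not afterwards. Pkm fell by 0.31 ± 0.055 on day 6, to 80.9% of the control (adjusted p = 0.0025), while the day 3 difference of -0.15 ± 0.055 did not pass the test (adjusted p = 0.077; limma). That difference passed with a robust prior that follows the intensity trend (adjusted p = 0.0014) and without the dimmest 40% of genes (adjusted p = 0.028; limma).

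Ldha, the gene of the lactate dehydrogenase A subunit, passed the test on day 6 and not before. On control arrays it read 9062 and 8822 on day 1.5, 8686 and 8565 on day 3, and 8774 and 8739.6 on day 6. On knockout arrays it read 8481 and 8586 on day 1.5, 8839 and 8927 on day 3, and 5991 and 6090.3 on day 6. The 10 arrays outside the day 6 knockout lay between 8481 and 9062, and the 2 arrays of the day 6 knockout were far below them. Ldha fell by 0.54 ± 0.045 on day 6, to 69.0% of the control (adjusted p = 2.8e-05), after differences of -0.07 ± 0.045 on day 1.5 (adjusted p = 0.43) and 0.04 ± 0.045 on day 3 (adjusted p = 0.58; limma).

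As a group, the enzymes went from 1 of 9 lower on day 1.5 (Pgk1) to 4 of 9 on day 3 (Pfkp, Aldoa, Tpi1 and Pgk1) and 7 of 9 on day 6, when Hk2 and Gapdh were the 2 genes that were not called. All 4 genes called on day 3 were also called on day 6. Of all 18194 genes, limma called 3.98% lower on day 1.5, 10.0% on day 3 and 15.3% on day 6. The median difference of the 9 genes was -0.01, -0.15 and -0.45 on the 3 days, where that of all genes was 0.0028, 0.028 and -0.0013. In a fit to the 4 arrays of day 3 alone, 1 of the 4 calls of that day passed, that of Pfkp, and a trended robust prior called 2 genes lower on day 1.5 (limma).

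Controls of the other days gave the same 7 genes on day 6 and a different set on day 3. Against the controls of days 1.5 and 3, the day 6 knockout had 7 of 9 genes lower, where 17.1% of all genes were lower, with a median of -0.48. Tpi1 fell by 0.71 ± 0.046, Pgk1 fell by 0.63 ± 0.045, Pfkp fell by 0.61 ± 0.046 and Ldha fell by 0.54 ± 0.039 (largest adjusted p of these 4 = 7.3e-06; limma). All 7 were called in both comparisons, which share the knockout arrays. Hk2 was at 0.11 ± 0.043 in the same comparison (adjusted p = 0.061) and Gapdh at -0.08 ± 0.039 (adjusted p = 0.16; limma).

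The day 3 knockout had 3 of 9 genes lower than the controls of days 1.5 and 6, where 15.5% of all genes were lower, and 2 of these, Pfkp and Aldoa, were also lower than the control of the same day. Pfkp fell by 0.31 ± 0.046 (adjusted p = 0.0014), Aldoa by 0.14 ± 0.043 (adjusted p = 0.038) and Hk2 by 0.14 ± 0.043 (adjusted p = 0.041; limma). Tpi1 was at -0.07 ± 0.046 (adjusted p = 0.28) and Pgk1 at -0.06 ± 0.045 (adjusted p = 0.36; limma). The count of 3 came down to 1 with quantile normalization, with the probe sets of each gene averaged, in a fit to the arrays compared, and without any 1 array of days 1.5 or 6 or of the day 3 knockout. On day 1.5 the knockout had 1 of 9 genes lower than the controls of days 3 and 6, where 7.26% of all genes were lower, and this was Pgk1 with a drop of 0.29 ± 0.045 (adjusted p = 0.0021 in limma).

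**Figure D2:**
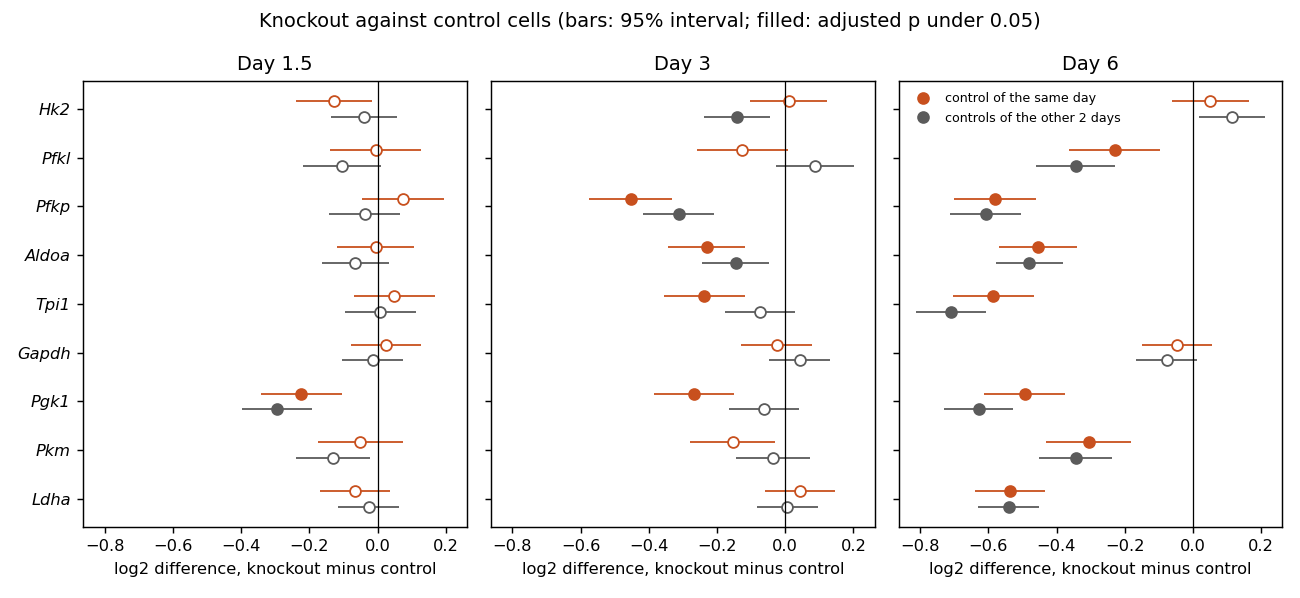
Difference of the knockout from the control of the same day (orange) and from the controls of the other 2 days (grey) on the log2 scale, with 95% intervals from limma, for 9 genes on 3 days; filled points have an adjusted p under 0.05. On day 6 both comparisons have the same 7 genes filled and below 0, with Gapdh open and also below 0, and on day 3 Tpi1 and Pgk1 are filled only against the control of the same day.

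The control cells themselves moved between days. From day 1.5 to day 3 the controls had 3 of 9 genes higher, where 9.12% of all genes were higher: Pfkl rose by 0.21 ± 0.059, Pgk1 by 0.18 ± 0.052 and Pfkp by 0.17 ± 0.053 (adjusted p = 0.028, 0.028 and 0.043; limma). Hk2 fell by 0.16 ± 0.050 (adjusted p = 0.042 in limma), the 1 gene of 9 that was lower, where 18.2% of all genes were lower, and this call was lost without any 1 of the 10 arrays other than those of the day 3 knockout. The counts depended on the setting: 7 genes were higher with a trended robust prior and 5 without the dimmest 40% of genes, while with each array set to the same median 0 of the 9 genes were higher, with a fit to the 4 arrays alone 0 were called in either direction, and without either control array of day 1.5 or replicate 1 of the day 3 control 0 were higher (limma, with 6 of 9 at an unadjusted p under 0.05 in the full fit). The shares of all genes called in these other settings are not given here, so the counts show only how the calls moved. From day 3 to day 6 the controls had 3 of 9 genes lower, where 8.01% of all genes were lower: Pgk1 fell by 0.23 ± 0.052, Pfkl by 0.22 ± 0.059 and Tpi1 by 0.19 ± 0.053 (adjusted p = 0.012, 0.023 and 0.025; limma). The count was 0 without replicate 1 of the control of day 6, 0 in a fit to the 4 arrays alone, 1 with equal array medians and 6 with a trended robust prior.

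Between days 1.5 and 6 the controls had 0 of 9 genes called in limma, also 0 at an unadjusted p under 0.05, where 0.473% of all genes were lower and 1.09% higher. The differences ran from -0.06 for Tpi1 to 0.06 for Pfkp. By group means alone, the day 3 control was the highest group for 7 of the 9 genes, with Ldha highest in the day 1.5 control and Hk2 in the day 6 knockout. The day 6 knockout was the lowest group for 8 of the 9, and Hk2 was lowest in the day 3 control. The share of all genes with the same highest or lowest group is not given here, so these counts do not set the enzymes apart from other genes.

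In the knockout cells more of the genes fell from day 3 to day 6 than from day 1.5 to day 3. By its main probe set, Pfkp was the 1 gene of 9 lower on day 3 than on day 1.5, with a drop of 0.36 ± 0.053 (adjusted p = 0.0022 in limma), where 13.7% of all genes were lower. Other probe sets differed in the fit over all probe sets. The dimmest of Pfkp rose in that step by 0.49 ± 0.11 (adjusted p = 0.02 in limma). The dimmest of Tpi1 fell by 0.31 ± 0.055 (adjusted p = 0.0084 in limma). With equal array medians, with a trended robust prior and without the dimmest 40% of genes, 3 of the 9 genes were lower in that step. With equal medians the median of the 9 genes went from 0.021 to -0.050. Of all 18194 genes, 4049 were then lower, against 2488 in the main fit, so more genes were called lower in general. From day 3 to day 6, 7 of 9 genes were lower, where 13.0% of all genes were lower, and these were the 7 genes called against the day 6 control. Ldha fell by 0.56 ± 0.045, Tpi1 by 0.54 ± 0.053, Pgk1 by 0.45 ± 0.052, Pfkl by 0.32 ± 0.059, Aldoa by 0.30 ± 0.050, Pkm by 0.26 ± 0.055 and Pfkp by 0.24 ± 0.053 (largest adjusted p = 0.0080 in limma).

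Hk2 went the other way in the same step, rising by 0.18 ± 0.050 (adjusted p = 0.020 in limma), the 1 gene of 9 that was higher, where 20.5% of all genes were higher. Between days 1.5 and 6 the knockout had 7 of 9 genes lower and 1 higher, where 14.3% of all genes were lower and 15.9% higher, and Hk2 was again the gene that rose, by 0.16 ± 0.050 (adjusted p = 0.035 in limma). Both Hk2 calls were lost in fits to the arrays compared alone. The first was also lost without replicate 1 of the day 3 knockout and without either day 6 knockout array. The second was lost with equal array medians and without any 1 of the knockout arrays of days 1.5 and 6 or of the day 6 control arrays (limma).

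The timing was tested as the change of the knockout-control difference itself. From day 1.5 to day 3 the difference moved down for 2 of 9 genes, Pfkp by 0.53 ± 0.076 and Tpi1 by 0.29 ± 0.074 (adjusted p = 0.0023 and 0.032; limma), where 7.34% of all genes moved down. From day 3 to day 6 it dropped by 0.58 ± 0.064 for Ldha and by 0.35 ± 0.074 for Tpi1 (adjusted p = 0.00076 and 0.014; limma), again 2 of 9 genes, where 8.75% of all genes moved down. From day 1.5 to day 6 it moved down for 5 of 9 genes, namely Pfkp, Tpi1, Ldha, Aldoa and Pgk1, where 10.0% of all genes moved down. For Pfkp the later step of -0.13 ± 0.076 did not pass (adjusted p = 0.31), and for Ldha the earlier step of 0.11 ± 0.064 did not (adjusted p = 0.31; limma). The count of the first step was 1 without any 1 of 8 arrays, among them both knockout arrays of each day, and also 1 with probe sets averaged and in a fit to the arrays compared. That of the second was 1 without replicate 2 of the day 6 control or replicate 1 of the day 6 knockout, 5 with a trended robust prior and 4 without the dimmest 40% of genes.

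The 23 probe sets of the 9 genes were also tested in a fit over all 45101 probe sets of the array. On day 6, 16 of 23 were lower, where 9.36% of all probe sets were lower, and on day 3, 9 of 23, where 5.54% were. The 7 not called on day 6 were the 3 of Gapdh, the 1 of Hk2, the dimmest of 5 of Aldoa (at -0.22 ± 0.086, adjusted p = 0.11), the dimmest of 3 of Pfkl (at -0.05 ± 0.13, adjusted p = 0.86) and the second brightest of 3 of Pfkp (at -0.07 ± 0.24, adjusted p = 0.89; limma). The last 2 were dim, with group means between 58.0 and 65.3 for Pfkl and between 60.1 and 115 for Pfkp. The 3 Tpi1 probe sets gave -0.69, -0.59 and -0.57, the 3 Pgk1 probe sets -0.49, -0.37 and -0.35, and the other 4 Aldoa probe sets between -0.61 and -0.45.

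Pfkp was the gene with probe sets called in opposite directions. Its dimmest probe set was higher in the day 3 knockout than in the controls of days 1.5 and 6, by 0.34 ± 0.092 (adjusted p = 0.034), where the main probe set was lower by 0.31 on the log2 scale (adjusted p = 0.0046 in this fit; limma). The dimmest probe set had group means between 33.0 and 48.4, and the main one between 1606 and 2596. On day 6 both fell against the same-day control. For Pgk1 the day 1.5 difference was -0.22 on the main probe set (adjusted p = 0.090 in the fit over all probe sets), and -0.16 and -0.20 on the other 2 (adjusted p = 0.20 and 0.28; limma). Probe set names that end in _x_at or _a_at mark probes that may match further sequences or several transcripts, and Aldoa has _x_at probe sets alone.

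A measure of RNA integrity and labelling had its extremes in the same groups as the mean of the enzymes. The mean of the 9 genes, each centred on its own mean over the 12 arrays, was 0.15 in the day 3 control and -0.29 in the day 6 knockout, and lay between -0.0086 and 0.064 in the other 4 groups. The ratio of the Gapdh 3′ to the 5′ control probe set was 1.23 on both day 3 control arrays, 1.17 and 1.18 on the day 3 knockout arrays, and 1.10 and 1.11 on the day 6 knockout arrays. It lay between 1.13 and 1.15 on the other 6 arrays. The group highest in the mean was thus also highest in the ratio, and the lowest was also lowest. The 3′ probe set of this ratio is also the main probe set of Gapdh, so it is itself part of the mean of the 9 genes. Its own level was highest and lowest in the same groups, so part of this agreement is built in. The other groups did not keep the order: the day 3 knockout had the next lowest mean and the next highest ratio. The part of this ratio in the result was not tested. The same ratio for Actb was between 1.65 and 1.94, without the same order over all groups: it was lowest on the day 3 knockout arrays. On days 3 and 6, however, the knockout arrays were below the same-day control arrays in both ratios, and on day 1.5 they overlapped. For Actb they read 1.65 and 1.66 against 1.77 and 1.89 on day 3. On day 6 they read 1.68 and 1.72 against 1.81 and 1.83. The part of the Actb ratio was not tested either.

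**Figure D3:**
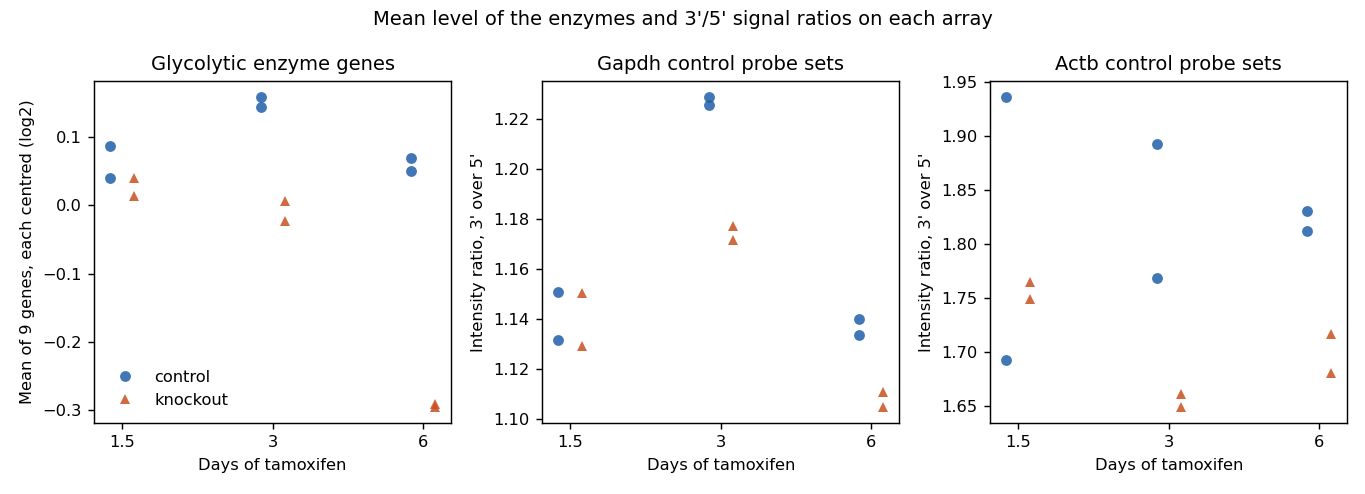
Values of single arrays (circles control, triangles knockout) against days of tamoxifen: left, mean log2 intensity of the 9 genes, each centred on its mean over 12 arrays; middle and right, intensity ratio of the 3′ to the 5′ control probe set of Gapdh and of Actb (axes do not start at 0). The day 3 control is highest and the day 6 knockout lowest in the left and middle panels, which share the 3′ probe set of Gapdh.

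Markers of ES cells and of other cell types were checked for the same arrays. The summed intensity of 10 ES cell markers stayed between 76284 and 79914 over the 12 arrays, although single markers were called. On day 1.5, 2 were lower and 1 higher, where 3.98% and 5.93% of all genes were. On day 3, 3 were lower and 2 higher, where 10.0% and 13.3% of all genes were. On day 6, 1 was lower and 1 higher, which is not above the shares of all genes, 15.3% and 17.2%. Klf4 fell on all 3 days and Fbxo15 rose on all 3 (largest adjusted p of the 6 tests = 0.012 in limma), and Pou5f1 passed no same-day test. The sum of 9 measured of 10 fibroblast or feeder markers was 1804 and 1876 in the day 1.5 control, 896 and 912 in the day 1.5 knockout, 646 and 680.0 in the day 3 control, 958 and 983 in the day 3 knockout, 2574 and 2784 in the day 6 control and 3439 and 3510.2 in the day 6 knockout. The sum of 10 extraembryonic endoderm markers was 6005 and 6184, 4144 and 4242, 3006 and 3063, 2767 and 2842, 6289 and 6436, and 5979 and 6027 in the same order of groups. Of these 10, 7 were lower in the knockout on day 1.5, where 3.98% of all genes were. On day 3, 2 were lower and 3 higher, where 10.0% and 13.3% were. On day 6, 4 were lower and 1 higher, where 15.3% and 17.2% were. In the controls 9 of the 10 fell from day 1.5 to day 3, where 18.2% of all genes did. All 10 rose from day 3 to day 6, where 3543 of 18194 genes did. The fibroblast or feeder sum was thus lowest in the day 3 control and highest in the day 6 knockout, the groups in which the enzyme mean was highest and lowest. Most of the day 6 sum came from the smooth muscle genes Acta2 and Tagln, which rose on day 6 against the same-day control, by 0.60 ± 0.11 and 0.40 ± 0.064 (adjusted p = 0.0021 and 0.0012; limma). Col1a1, Col1a2 and Thy1 fell in the same comparison, so that 3 of the 9 were lower and 2 higher, with a median of -0.13. Of all genes, 15.3% were lower and 17.2% higher in that comparison. No marker was at 0, since the lowest RMA value of the array was 5.51. In bulk RNA, fewer cells of a type and less RNA per cell cannot be told apart, and the part of these markers in the result was not tested.

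Other isoenzymes of the pathway, 16 measured of 19 on the list, were divided. On day 6, 6 were lower and 2 higher, with a median of -0.18 against -0.0013 for all genes, where 15.3% of all genes were lower and 17.2% higher. On day 3, 5 were lower and 1 higher, where 10.0% and 13.3% of all genes were, and on day 1.5, 1 and 1, where 3.98% and 5.93% were. Ldhb, which encodes the B subunit of lactate dehydrogenase, fell by 0.96 ± 0.054 on day 3 (adjusted p = 6.7e-06) and by 0.48 ± 0.054 on day 6 (adjusted p = 0.00014; limma). Its control arrays read 5989.6 and 6097 on day 3 and between 3111 and 3220 on the other days, and the day 3 knockout arrays read 3081 and 3147. Against the controls of the other days the day 3 difference of Ldhb was -0.02 ± 0.047 (adjusted p = 0.76 in limma).

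Enolase genes other than Eno1 did not move together. Eno3, the muscle enolase gene, rose by 0.71 ± 0.056 on day 1.5, by 0.55 ± 0.056 on day 3 and by 0.27 ± 0.056 on day 6 (adjusted p = 0.00022, 0.00014 and 0.0050; limma). Against the controls of the other days its day 3 difference was 0.14 ± 0.048 (adjusted p = 0.057 in limma). Eno2, the neuronal enolase gene, fell by 0.75 ± 0.14 on day 3 (adjusted p = 0.0049) and was at -0.26 ± 0.14 on day 6 (adjusted p = 0.20; limma). Its day 3 difference was -0.29 ± 0.12 against the controls of the other days (adjusted p = 0.12 in limma). Eno4 rose by 0.84 ± 0.17 on day 6 (adjusted p = 0.0044 in limma), with 108 and 170.4 on the knockout arrays against 73.9 and 78.1. Bpgm and Hk3 were called on no day in the same-day comparisons.

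Regulators of flux through the pathway, 12 measured of 13, included Pfkfb2, which had the largest rise on day 6 among the glycolysis lists. On day 6, 6 were lower and 3 higher, where 15.3% and 17.2% of all genes were. On day 3, 5 were lower, where 10.0% of all genes were, and on day 1.5, 3 were lower and 1 higher, where 3.98% and 5.93% were. Pfkfb2 and Pfkfb3 encode the bifunctional enzymes that set the level of a fructose bisphosphate that activates phosphofructokinase. Pfkfb2 rose by 1.38 ± 0.082 on day 6 (adjusted p = 3.3e-06), from 93.4 and 107 on the control arrays to 254 and 265 on the knockout arrays. Pfkfb3 fell by 0.57 ± 0.077 on day 1.5 (adjusted p = 0.0026) and rose by 0.87 ± 0.077 on day 6 (adjusted p = 3.9e-05; limma). Pdk4, a kinase gene whose product restrains pyruvate dehydrogenase, fell by 0.57 ± 0.062 on day 3, and Pdp1, whose phosphatase opposes it, fell by 0.66 ± 0.089 on day 6 (adjusted p = 0.00021 and 0.00046; limma). Pfkfb4 was called on no day.

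Of 7 glucose and lactate transporter genes, 3 were lower and 1 higher on day 6, where 15.3% and 17.2% of all genes were, and the median was 0.061. On day 3, 1 was lower, where 10.0% of all genes were. The lactate transporter genes Slc16a1 and Slc16a3 fell by 0.49 ± 0.049 and by 0.83 ± 0.13 on day 6 (adjusted p = 8e-05 and 0.00094; limma), the second from a dim level of 81.2 and 90.8 on the control arrays. Slc2a1, which encodes the glucose transporter GLUT1, was at 0.09 ± 0.049 on day 6 (adjusted p = 0.21), and Bsg, the gene of the chaperone of the lactate transporters, at 0.09 ± 0.070 (adjusted p = 0.40; limma). Slc2a3, the gene of the glucose transporter GLUT3, fell by 0.33 ± 0.044 on day 3 (adjusted p = 0.00075) and rose by 0.13 ± 0.044 on day 6 (adjusted p = 0.048; limma). Against the controls of the other days its day 6 difference was 0.08 ± 0.038 (adjusted p = 0.14 in limma). Slc2a2 fell by 0.22 ± 0.047 on day 6 (adjusted p = 0.0059 in limma) at intensities under 11.

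Pathways that branch from or oppose glycolysis had members that moved in both directions. Of 6 measured of 7 pentose phosphate enzymes, 2 were lower and 1 higher on day 6, where 15.3% and 17.2% of all genes were. On day 3 the counts were 1 and 1, where 10.0% and 13.3% were, and on day 1.5, 2 and 1, where 3.98% and 5.93% were. A single call among 6 genes is close to the shares of days 3 and 6. Rpia, the ribose phosphate isomerase gene, fell by 0.76 ± 0.051 and Tkt, the transketolase gene, by 0.36 ± 0.057 on day 6 (adjusted p = 6.5e-06 and 0.0011; limma). On day 1.5 Pgls rose by 0.43 ± 0.059 and Rpe fell by 0.26 ± 0.048 (adjusted p = 0.0029 and 0.011; limma). Of 7 gluconeogenesis enzymes, 2 were lower and 3 higher on day 6, where 15.3% and 17.2% of all genes were, and 1 lower and 3 higher on day 3, where 10.0% and 13.3% were.

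The gluconeogenesis gene that moved most was Pck2, which encodes the mitochondrial phosphoenolpyruvate carboxykinase. It fell by 0.93 ± 0.076 on day 3 and dropped by 1.54 ± 0.076 on day 6, when the control arrays read 1611 and 1671 and the knockout arrays 555 and 571 (adjusted p = 4.7e-05 and 1.1e-06; limma). Fbp1 and Fbp2, the fructose bisphosphatase genes, rose by 0.90 ± 0.12 and by 1.02 ± 0.086 on day 6 (adjusted p = 0.00036 and 2.5e-05; limma), both from intensities near the bottom of the scale, with Fbp1 at 37.0 and 37.7 in the control. G6pc3 fell by 0.53 ± 0.080 on day 6 (adjusted p = 0.00091 in limma). Pck1 and G6pc, at intensities under 17, were called on no day.

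Transcription factors and oxygen sensors known to act on glycolytic genes, 14 of 14 measured, gave 2 lower and 6 higher on day 6, where 15.3% and 17.2% of all genes were, so that the 2 lower are close to that share. On day 3, 4 were lower and 3 higher, where 10.0% and 13.3% of all genes were, and on day 1.5, 1 was lower, where 3.98% were. Hif1a, the gene of the oxygen-regulated subunit of hypoxia-inducible factor, lay between 3883 and 4825 on all 12 arrays and was at 0.11 ± 0.080 on day 6 (adjusted p = 0.35 in limma). Myc rose by 0.78 ± 0.054 on day 3 and by 0.65 ± 0.054 on day 6 (adjusted p = 2e-05 and 2.3e-05; limma). Its control arrays read 282 and 284 on day 3 and between 672 and 720 on the other days, so that against the controls of days 1.5 and 6 the day 3 knockout fell by 0.52 ± 0.046 (adjusted p = 6.9e-05 in limma).

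Max, which encodes the partner protein of Myc, fell by 0.72 ± 0.097 on day 6, and Mlxip, the gene of the glucose-sensing factor MondoA, fell by 0.53 ± 0.083 (adjusted p = 0.00045 and 0.0011; limma). Egln3, a prolyl hydroxylase gene and itself a known target of hypoxia-inducible factor, fell by 0.50 ± 0.061 on day 3 and rose by 0.30 ± 0.061 on day 6 (adjusted p = 0.00042 and 0.0052; limma). Against the controls of the other days Egln3 moved the opposite way on both, by 0.22 ± 0.053 on day 3 and -0.30 ± 0.053 on day 6 (adjusted p = 0.016 and 0.0015; limma). Egln2 was called on no day.

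**Figure D4:**
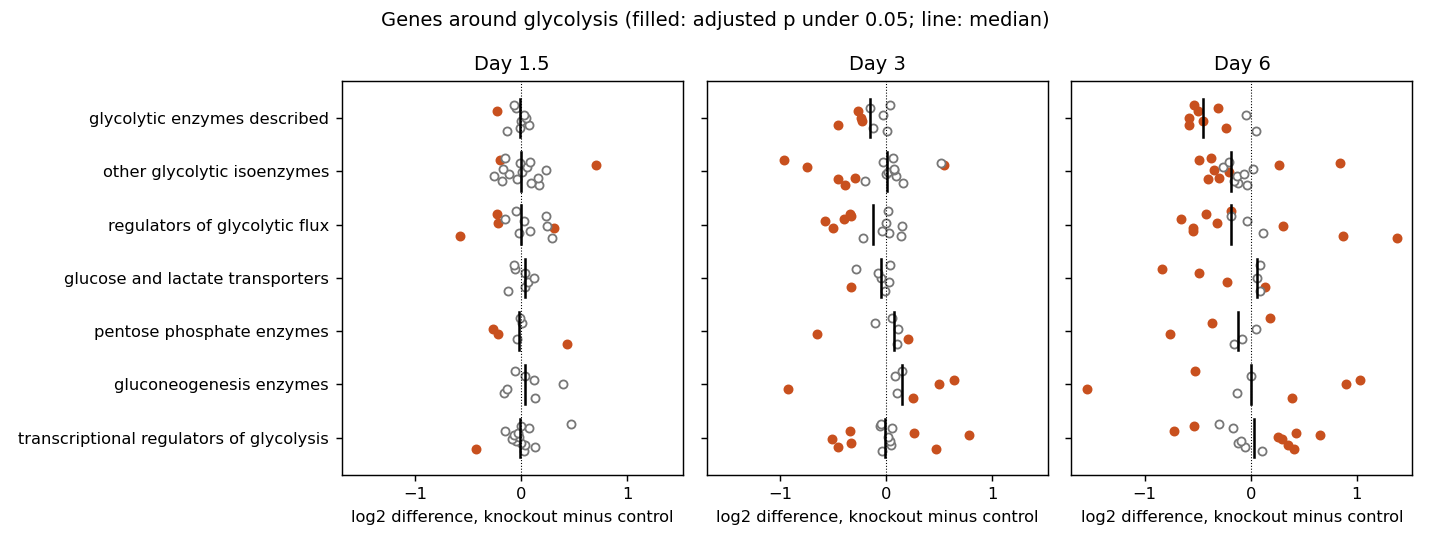
Log2 difference of the knockout from the control of the same day for each measured gene of 7 lists, in panels for days 1.5, 3 and 6; each point is a gene, filled points have an adjusted p under 0.05 in limma, and vertical bars are list medians. On day 6 the described enzymes centre on -0.45, while the gluconeogenesis enzymes spread from -1.54 to 1.02.

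Among themselves 8 of the 9 enzymes had group profiles that correlated positively with the mean of the rest, and Hk2 did not, although the steps at which single genes moved differed. The correlation of a gene's 6 group means with the mean of the other 8 genes was 0.98 for Aldoa, 0.97 for Pkm and Tpi1, 0.92 for Pgk1, 0.89 for Ldha and Pfkp, 0.87 for Pfkl and 0.78 for Gapdh, and -0.61 for Hk2. The points share arrays and normalization, and the values are a description. Of all other genes, the profiles most like the mean of the 9 were those of Sarnp, Tst, Brcc3, Anp32b and Pcnx4, with Pearson r between 0.994 and 0.995 over 6 group means. Tst fell by 1.22 ± 0.070 and Brcc3 by 0.57 ± 0.062 on day 6, whereas Anp32b was at -0.12 ± 0.053 (adjusted p = 2.7e-06, 0.00012 and 0.12; limma), so a like profile did not mean a like size of change.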

How the data were processed

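RNA of mouse ES cells was measured on 12 Affymetrix arrays with 2 arrays in each of 6 groups. The deposited values are intensities, for which the submitters' processing notes name RMA, on a linear scale from 5.51 to 34993; the annotation and version behind RMA are not given in the sources used here. Of the 45101 probe sets, 34958 had 1 gene symbol, 932 several and 9211 none, and 3 probe sets that name Gapdh with other symbols were left out. Intensities were turned into log2 values, and the probe set with the highest mean represented a gene. A mean per group was fitted to all 12 arrays with limma 3.58.1 (R 4.3.3; lmFit and eBayes, 6 residual and 3.04 prior degrees of freedom), with Benjamini-Hochberg adjustment over 18194 genes and a threshold of 0.05. The script was tested on simulated data. The number of arrays limits the precision, which the SEs give.

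The genes described and all lists were chosen with earlier results of these data known. Of each list the text names up to 4 genes called in a same-day comparison, by the size of the difference, and the 2 brightest that were not called. Also named are the 5 genes with the most similar profile. Alternatives were a replicate block, the arrays compared alone, a trended robust prior, no dim genes, the mean of all probe sets, equal array medians, quantile normalization and fits without 1 array at a time. All promoter bases are from RefSeq. Figures were drawn with matplotlib 3.10.9.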

Additional observations from a re-analysis of the deposited data

Results flagged for a closer look

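The difference between knockout and control changed with the day for 5 of the 9 genes, all of them called in the interaction from day 1.5 to day 6 (limma). Of all genes, 10.0% moved down in that interaction, 7.34% in that from day 1.5 to day 3 and 8.75% in that from day 3 to day 6. From day 1.5 to day 3 it moved by -0.53 ± 0.076 for Pfkp (adjusted p = 0.0023) and by -0.29 ± 0.074 for Tpi1 (adjusted p = 0.032; limma). From day 3 to day 6 it moved by -0.35 ± 0.074 for Tpi1 (adjusted p = 0.014) and by -0.58 ± 0.064 for Ldha (adjusted p = 0.00076; limma).

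Between days 1.5 and 6 the change was -0.66 ± 0.076 for Pfkp, -0.63 ± 0.074 for Tpi1, -0.47 ± 0.064 for Ldha, -0.45 ± 0.071 for Aldoa and -0.27 ± 0.074 for Pgk1 (adjusted p = 0.00045, 5e-04, 0.0012, 0.0024 and 0.032; limma). Pkm was at -0.25 ± 0.078 (adjusted p = 0.051) and Pfkl at -0.22 ± 0.083 (adjusted p = 0.097; limma). Tpi1 passed in all 3 of these tests, but the count of the first step fell from 2 genes to 1 without any 1 of 8 arrays, in a fit to the arrays compared and with probe sets averaged.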

How the results depend on the processing

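Day 6 was the most stable: 7 genes were lower than the controls of the other days in every alternative but 1, which called 8, and 6 or 7 than the same-day control when single arrays were left out. Without single arrays, the count lower was 0 to 1 on day 1.5 and 3 to 4 on day 3 against the same-day control, 1 to 3 for the day 3 knockout against other days, 0 to 1 (lower) and 0 to 3 (higher) for controls from day 1.5 to 3, 0 to 3 for controls from day 3 to 6, and 1 to 2 for each of the 2 shorter interactions. The Hk2 rise had 0 to 1 calls in both steps. The medians were then -0.20 to -0.13 for day 3, 0.088 to 0.18 for controls from day 1.5 to 3 and -0.14 to -0.052 for the first interaction. The replicate numbers did not pair the arrays (correlations of deviations from -0.057 to 0.17 over 15 pairs of groups, 1 above 0.1). With the replicate block, 1 gene was lower in the day 3 knockout than in other-day controls, and 0 in controls from day 1.5 to 3.

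For the counts under other settings, here and above, the share of all genes called in the same setting is not given. The exception is the knockout from day 1.5 to 3 with equal array medians, where the number of all genes is given above. The counts show how the calls moved and do not set the enzymes apart from other genes. A trended robust prior called 2 lower on day 1.5 (same-day and other-day controls alike), 1 higher for day 6 against other days, 7 higher for controls from day 1.5 to 3, 6 lower and 1 higher from day 3 to 6, and 3 lower and 1 higher for the knockout from day 1.5 to 3. It called 5 lower in the interaction from day 3 to 6 and 1 higher in that from day 1.5 to 6. Without the dimmest 40% of genes the counts were 2 lower (day 1.5 against other days), 1 higher (day 6 against other days), 5 higher and 1 higher (controls, first and second step), 3 lower and 1 higher (knockout, first step), 4 lower (interaction, day 3 to 6) and 1 higher (day 1.5 to 6).

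Fits to the arrays compared gave 0 lower on day 1.5, 1 on day 3, 1 for day 3 against other days, 0 in either direction for controls from day 1.5 to 3, 0 lower from day 3 to 6, 0 higher for the knockout from day 3 or day 1.5 to 6, and 1 in the first interaction. With probe sets averaged, 0 were lower on day 1.5, 1 for day 3 against other days, 1 in the first interaction and 3 in that from day 1.5 to 6. The medians were then -0.051 (day 1.5), -0.34 (day 6), -0.098 (day 1.5 against other days), and -0.34 and -0.27 for the knockout from days 3 and 1.5 to 6.

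With equal array medians the median of the knockout from day 1.5 to 3 reversed, from 0.021 to -0.050, with 3 genes lower. The other medians that moved were -0.12 (day 3 against other days), 0.082 and -0.043 (controls, first and second step) and -0.24 (knockout, day 3 to 6). The counts became 1 higher (day 6 against other days), 0 higher (controls, first step), 1 lower and 1 higher (controls, second step) and 0 higher (knockout, day 1.5 to 6). Quantile normalization gave 1 lower (day 3 against other days) and 0 lower (controls, first step), and medians of 0.18, -0.16 and -0.11 (controls, both steps, and interaction from day 3 to 6). The share of higher among all called genes moved from 39.3% to 20.5% (day 3 against other days), from 65.9% to 76.0% (day 1.5 against other days) and, for the knockout, from 33.8% to 15.4% and from 61.3% to 75.5% with equal medians. For the controls it moved from 33.4% to 22.5% and from 70.9% to 83.4% with equal medians, and to 44.8% and 59.0% with quantile normalization, which gave 43.8% for the first knockout step. The median intensity over all probe sets was 44.4 to 44.7 on the day 3 arrays of both genotypes. It was 42.4 to 43.0 on the arrays of the other days, and setting the medians equal removes this offset. Why the day 3 arrays had higher medians was not tested. Of the values of single genes in same-day comparisons, 495 kept their side of the threshold, 14 lost it and 4 gained it. The 12 called differences kept their sign, while 5 of the 15 that were not called (Hk2 and Gapdh on day 3, and Pfkl, Aldoa and Pkm on day 1.5) had the other sign in 11 values, none of them called.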
